A study of Mus musculus with 2 samples.

Results

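Of 4192 cells in 2 droplet single-cell RNA libraries of mouse thoracic aorta, 213 (5.08%) had more than 10% of their UMIs in mitochondrial genes and at least 500 genes detected. A UMI, or unique molecular identifier, counts 1 captured RNA molecule. The cells were selected on their measured mitochondrial share. That share, the 13 mitochondrial genes and the UMIs left for other genes are therefore described below as properties of the choice. Levels of all other genes are given over UMIs outside mitochondrial genes, as counts per 1000000 such UMIs (CPM), so that the share used for the choice does not enter them. The comparison was with the 3978 cells at or below 10%, always within the same library. The cells over 10% numbered 53 of 2095 in the control library (2.53%, 95% exact binomial interval 1.90 to 3.30) and 160 of 2097 in the knockout (KO) library (7.63%, 6.53 to 8.85).

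Both libraries came from male C57BL/6 mice aged 24 weeks that had received tamoxifen at 1.5 weeks. All carried Myh11-CreERT2, a tamoxifen-inducible Cre recombinase driven by a smooth muscle myosin promoter, and the mT/mG reporter, in which Cre turns off membrane tdTomato and turns on membrane eGFP. The control was labelled Tsc1+/+, and the KO carried Tsc1fl/fl and was labelled Tsc1-/-. Tsc1 encodes a subunit of the complex that restrains mTORC1 signalling. Aortas were digested with collagenase A and elastase, and cells negative for a viability dye and positive for GFP were sorted, per the labels' protocols. There was 1 library per genotype, and the sources used here do not give the number of animals in each. No difference had a replicate check, no p-value was computed, and intervals cover counting error only, while UMIs of the same cell are not independent.

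Mitochondria carry their own small genome, which encodes 13 respiratory chain proteins, and the resulting messenger RNAs stay inside the organelle. The other respiratory chain subunits and all cytosolic ribosomal proteins are encoded in the nucleus and translated mostly from cytosolic messenger RNA, while long noncoding RNAs such as Malat1 remain in the nucleus. A high mitochondrial share is widely used as a sign of a damaged cell in droplet data, and muscle cells can also hold many mitochondria. Whether either applied to the cells described here was not tested.

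The mitochondrial share of the selected control cells ranged from 10.2% to 44.2% with a median of 18.2%, and that of the selected KO cells from 10.0% to 56.2% with a median of 13.04%. Cells at or below the limit had medians of 4.59% in the control and 5.72% in KO cells. The limit fell in a thin region of the control distribution, with 20 cells between 8% and 10% and 8 between 10% and 12%. Among KO cells it fell on a denser shoulder, with 203 and 64 cells in the same steps. The KO cells over the limit therefore lay closer to it than the control cells did, and differences between the libraries below are read beside that.

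Both terms of the share differed. The selected control cells held a median of 775 mitochondrial UMIs (302 to 1513), against 491 in the other control cells, and a median of 3175 UMIs outside mitochondrial genes (1419 to 11273), against 10089. For the KO library the medians were 1381 against 865 mitochondrial UMIs and 7742 (1744 to 20120) against 14048 other UMIs. The selected cells thus had more mitochondrial molecules than the rest and 0.315 (control) or 0.551 (KO) times as many molecules from the nuclear genome. Among the selected cells, the share was related to the UMIs outside mitochondrial genes with a Spearman rho of -0.76 in 53 control and -0.61 in 160 KO cells, and to mitochondrial UMIs with 0.35 and 0.33. These values are descriptive, since both counts enter the share. The files hold no cell with under 2279 UMIs in the control and 3872 in KO cells.

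**Figure D1:**
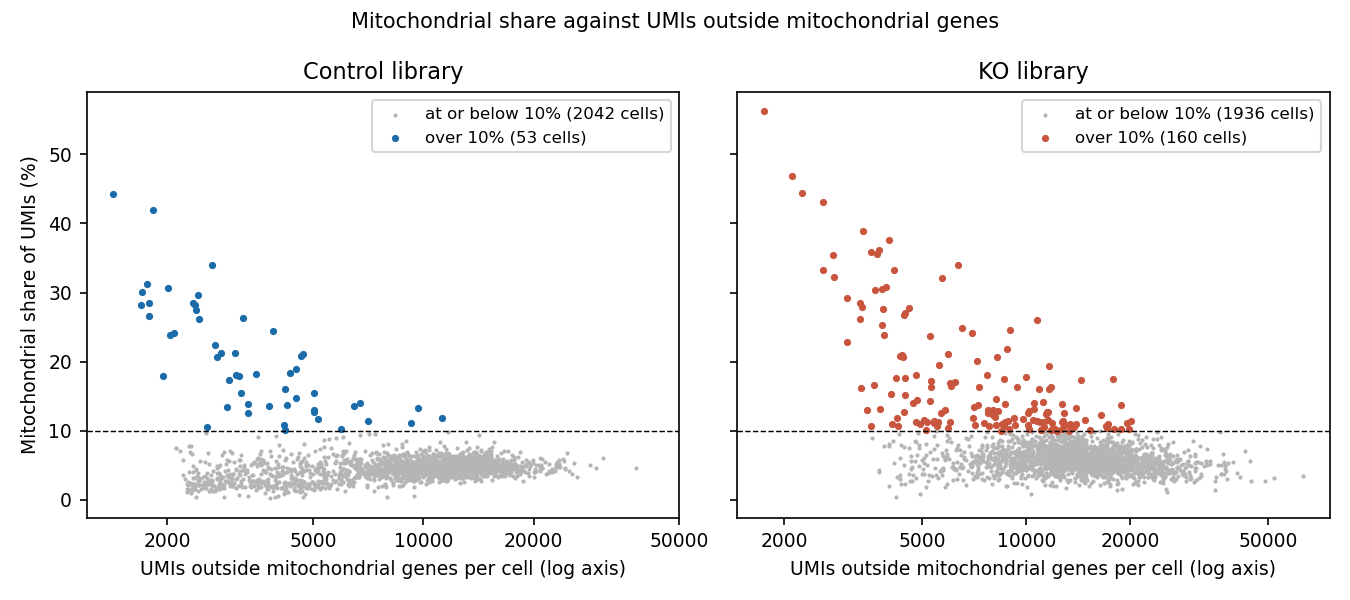
Each point is 1 cell, with UMIs outside mitochondrial genes on a log horizontal axis and the mitochondrial share of all UMIs (%) on the vertical axis. Cells over the dashed 10% limit (53 control, 160 KO) reach 44.2% and 56.2%, and those with the highest shares have the fewest other UMIs.

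Fewer genes were detected in the selected cells, with medians of 1607 against 3099.5 in the control and 2700 against 3755 in KO cells. At an equal depth of 1400 UMIs drawn per cell the order turned. The medians were then 853 against 804 genes in the control and 828 against 806 in KO cells, so the selected cells were not less complex at equal depth.

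One further KO cell had 93.8% of 4259 UMIs in mitochondrial genes but only 232 genes, and was left out by the gene minimum.

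The abundant mitochondrial genes, mt-Co1 apart, kept similar proportions in the selected cells. The 13 genes lie on chromosome M between positions 2751 and 15288 of the mm10 build. mt-Atp6, a subunit of ATP synthase, made up 21.1% of mitochondrial UMIs in the selected control cells and 20.0% in the others, and 21.2% against 20.0% in KO cells. mt-Co3, a cytochrome oxidase subunit, made up 17.9% against 17.7% and 19.0% against 18.9%. mt-Co1, another cytochrome oxidase subunit, took a smaller part of the selected cells' mitochondrial UMIs in both libraries, 10.8% against 13.3% and 12.6% against 14.4%. mt-Nd6, encoded on the opposite strand from the other 12, had 6 UMIs in the selected control cells and 19 in the selected KO cells, and its part of mitochondrial UMIs was 0.555 (95% interval 0.202 to 1.23) and 0.469 (0.278 to 0.745) times that in the other cells. For mt-Atp8, an ATP synthase subunit, the same ratio was 0.822 (0.675 to 0.993) and 0.701 (0.626 to 0.782), and for mt-Nd4l, a complex I subunit, 0.831 and 0.812. The higher share was therefore spread over the abundant mitochondrial messenger RNAs and did not come from 1 gene.

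The selected cells were reporter-labelled cells of the smooth muscle lineage in nearly all cases. eGFP at 1000 CPM or more within a cell, the limit used for an eGFP-positive cell, was found in 49 of 53 selected control cells (92.5%, 81.8 to 97.9) against 1680 of 2042 others (82.3%), and in 149 of 160 selected KO cells (93.1%, 88.0 to 96.5) against 1870 of 1936 others (96.6%). Between 500 and 2000 CPM, close to that limit, lay 9 selected control and 36 selected KO cells. A single selected cell in each library had no eGFP UMI, against 330 of the other control and 12 of the other KO cells. tdTomato had no UMI in any cell, which allows up to 6.72% of the selected control and 2.28% of the selected KO cells with a UMI. It was also absent from the 362 other control and 66 other KO cells below the eGFP limit. Its absence therefore cannot tell labelled from unlabelled cells.

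eGFP itself stood at 4517 CPM in the selected and 5545 CPM in the other control cells, a ratio of 0.815 (95% interval 0.762 to 0.870). In KO cells the values were 3320 and 3798 CPM, a ratio of 0.874 (0.848 to 0.901). Among eGFP-positive cells the median per cell was 4181 CPM in the selected control cells (1093 to 10636) against 5652 in the others, and 3371 (1087 to 7682) against 3529 in KO cells. Of the selected eGFP-positive cells, 51.0% (control) and 29.5% (KO) lay below the others' first quartile, and 8.16% and 20.1% above their upper quartile. The 1000 CPM limit sets the lower end of these ranges. The ratio was also taken among eGFP-positive cells of the selected cells' own depth. In the control (2392 to 4502 UMIs outside mitochondrial genes, 24 selected and 74 other cells) it was 0.966 (0.863 to 1.08). In KO cells (4455 to 11246 such UMIs, 79 selected and 488 other cells) it was 0.883 (0.843 to 0.924).

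All 8 smooth muscle markers (Myh11, Acta2, Tagln, Cnn1, Lmod1, Myocd, Smtn and Synpo2) were detected in the selected cells of both libraries, summing to 36216 CPM against 37287 in the other control cells and to 26942 against 19530 in KO cells. Macrophage markers summed to 9.96 CPM in the selected control cells against 1033 in the others, with 6 of 8 at 0, among them Adgre1, Csf1r and Lyz2. Neutrophil markers summed to 24.9 against 820 CPM. Among eGFP-positive control cells alone, the macrophage markers summed to 10.5 against 15.6 CPM. The neutrophil markers there summed to 26.4 against 9.22 CPM, from 5 UMIs in the selected cells. B cell and mesothelial markers had no UMI in the selected control cells. The selected KO cells had 15.1 CPM of macrophage and 5.30 CPM of neutrophil markers. Of 7 endothelial markers, 6 were at 0 in the selected control and 5 in the selected KO cells, including Cdh5 and Kdr in both. Of the fibroblast markers, Col1a1 alone had UMIs in the selected control cells. In the selected KO cells that list summed to 701 CPM against 1100 in the others, with Pi16 alone at 0. Further lists (T and natural killer cell, dendritic, erythroid, platelet, adipocyte, heart and skeletal muscle) summed to between 0 and 164 CPM in the selected cells.

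Clusters built without mitochondrial genes placed the selected cells among the eGFP-positive clusters of their own library. In the control, 47 of the 53 were in a cluster of 1414 cells led by Wif1, Optc and Bdh1, and 6 in a cluster of 336 led by Adamtsl1, Gpc3, Msx2 and Rgs5, making up 3.32% and 1.79% of them. None was in the 5 eGFP-low clusters led by Lyz2, Cd79a, Gzma, Ngp or Ifitm1. Among KO cells, 88 of 1083 cells (8.13%) of a cluster led by Chchd10, Wnt16 and Mgst3 were over the limit. The share was higher, 47 of 275 cells (17.1%, 12.8 to 22.1), in a cluster led by Cenpa, Lockd, Fbln2 and Spp1, and lower, 22 of 612 (3.59%, 2.27 to 5.39), in a cluster led by Cytl1, Igf1, Dcn and Lum. The last cluster with a selected cell, led by Megf10 and Inmt, held 3 among 109. These intervals cover counting error, and each cluster came mostly from 1 library. No selected cell was called a doublet.

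Malat1, a nuclear long noncoding RNA, took a much larger part of the remaining RNA in the selected cells. It stood at 66098 CPM against 28113 CPM in the control library, a ratio of 2.35 (2.31 to 2.39), and at 74493 against 45567 CPM in KO cells, a ratio of 1.63 (1.62 to 1.65). Per cell it ranged from 0 to 318975 CPM with a median of 66395 in the selected control cells, against a median of 25370 in the others, and 73.6% of selected cells lay above the other cells' upper quartile. For the KO library the range was 0 to 543083 with a median of 59582 against 40958, and 46.3% lay above the upper quartile. The selected KO cells also spread downward, with 19.4% of them below the first quartile of the other cells. In the median cell the molecules were not more numerous, at 210 Malat1 UMIs against 240 in the control and 468 against 580 in KO cells. Among eGFP-positive cells alone the medians were 203 against 281 UMIs in the control, with 44.9% of the selected cells below the others' first quartile, and 460 against 582.5 in KO cells. By steps of mitochondrial share, the mean over all KO cells was 600 to 763 Malat1 UMIs below the limit. It was 520, 539 and 589 in the steps to 12%, 15% and 20%. Between 20% and 30% it was 907, and above 30% it was 745.

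The tail of very high Malat1 held 12 of 53 selected control cells (22.6%) over 100000 CPM, against 12 of 2042 others (0.588%), and 51 of 160 selected KO cells (31.9%) against 124 of 1936 (6.40%). At the other end, 2 selected control and 5 selected KO cells were under 5000 CPM. Among the selected KO cells, those over 100000 CPM had a median mitochondrial share of 21.1% and those under 5000 a median of 11.2%.

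Of 18 nuclear RNAs listed, 13 were in the files and 5 at 100 CPM or more, of which 5 in the control and 3 in KO cells were higher in the selected cells by 1.5-fold or more. Of all genes at that level, 33.7% in the control and 9.99% in KO cells were that much higher. Neat1, the scaffold RNA of nuclear paraspeckles, stood at 1320 against 644 CPM in the control, a ratio of 2.05 (1.81 to 2.31), and at 1925 against 1202 CPM in KO cells, a ratio of 1.60 (1.54 to 1.67). Kcnq1ot1, an imprinted antisense RNA, had a ratio of 3.03 (2.20 to 4.08) in the control and 1.44 (1.24 to 1.66) in KO cells. In the control it passed the 100 CPM minimum only through the selected cells. Reads from Kcnq1ot1 and from Kcnq1, which it overlaps, could not be told apart if the counting ignored strand. Gm42418, a gene model counted in this list, had ratios of 3.40 and 1.98. Where its RNA lies in the cell was not tested. Meg3, another imprinted noncoding RNA, had a ratio of 1.65 (1.43 to 1.90) in the control. A single cell held 53 of its 202 UMIs there, and without that cell the ratio was 1.28 (1.08 to 1.50).

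**Figure D2:**
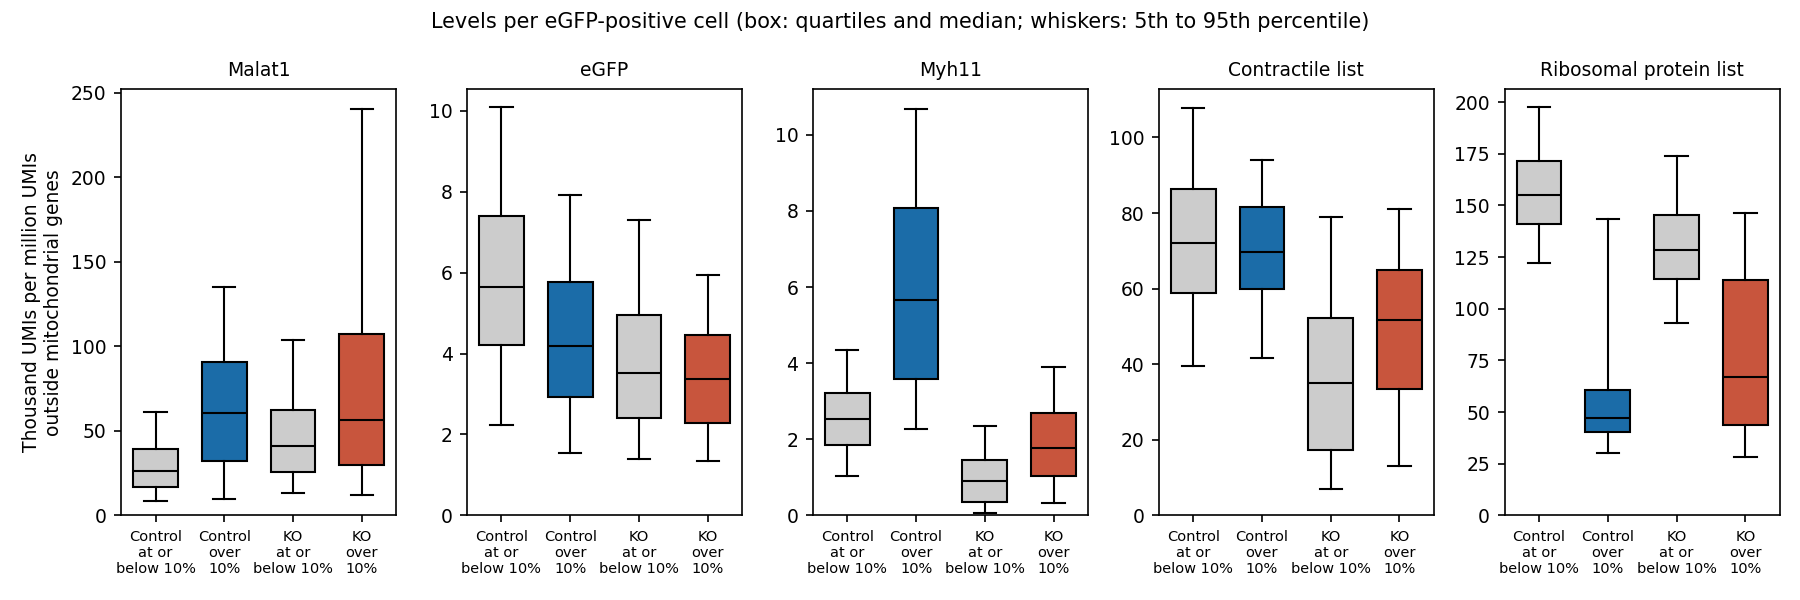
Levels in eGFP-positive cells at or below 10% (grey) and over 10% (blue control, red KO), as CPM within the cell over UMIs outside mitochondrial genes, in units of 1000 CPM, with boxes for quartiles and median and whiskers from the 5th to the 95th percentile. Malat1 and Myh11 sit higher and the ribosomal protein list lower in the cells over 10%, while eGFP and the control contractile list overlap across the limit.

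Across all genes, the selected control cells differed widely from the others in composition. Of 1923 genes outside the mitochondrial genome at 100 CPM or more in either population, 648 were higher by 1.5-fold or more in the selected control cells (33.7%) and 480 were lower (25.0%). In KO cells 172 of 1721 were higher (9.99%) and 115 lower (6.68%). Among eGFP-positive cells alone the calls were 633 of 1972 higher (32.1%) and 457 lower (23.2%) in the control, and 164 of 1724 higher (9.51%) and 105 lower (6.09%) in KO cells. Of the control genes, 425 passed the minimum only through the selected cells, and 350 of these counted as higher, while 275 passed only through the other cells, and 199 of these counted as lower. The interval lay wholly beyond 1.5-fold for 262 higher and 187 lower genes in the control and for 67 and 55 in KO cells. In molecules per cell the selected cells held fewer UMIs for 1836 of 1923 control and 1689 of 1721 KO genes, so that higher means a larger share of a smaller total.

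The shape of the difference was shared by both libraries to some extent. Of 1525 genes tested in both, 133 were higher in both and 77 lower in both, while 270 were higher and 360 lower in the control only by this threshold. A difference in the number of calls between libraries was not tested, and the selected KO cells lay nearer the limit. Restricting the selected cells to those over 15% (34 control, 65 KO) gave 899 higher and 585 lower genes in the control and 470 and 460 in KO cells.

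Flnc, the muscle filamin that crosslinks actin, stood at 1270 against 273 CPM, a ratio of 4.65 (4.08 to 5.27). A single cell held 67 of its 255 UMIs, and without it the ratio was 3.47 (2.99 to 4.01). Hspg2, which encodes the basement membrane proteoglycan perlecan, stood at 921 against 258 CPM. Itga5, the fibronectin receptor subunit, was at 623 against 153 CPM. Jph2, a junctophilin that joins the plasma membrane to the sarcoplasmic reticulum, was at 662 against 189 CPM. Pkdcc, Pxdn and Plxnb2 completed the leading 8 with Igfbp2, and Ogt, which encodes the enzyme that adds N-acetylglucosamine to proteins, joined them among eGFP-positive cells at a ratio of 4.18 (2.63 to 6.34).

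Among KO cells the leading genes overlapped with these. Flnc had a ratio of 2.63 (2.42 to 2.85) and Jph2 a ratio of 2.30 (2.09 to 2.53). Postn, a matricellular protein, stood at 750 against 321 CPM, and Mcam, a cell adhesion molecule, at 189 against 70.8 CPM. Cspg4, a chondroitin sulfate proteoglycan also called NG2, stood at 270 against 122 CPM, and Flna and Col18a1 at 2852 against 1375 and 696 against 332 CPM.

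Igfbp2, an insulin-like growth factor binding protein, stood apart from the other leading genes because few cells carried it. It stood at 254 against 63.7 CPM in the control, a ratio of 3.99 (2.95 to 5.27), and at 130 against 30.5 CPM in KO cells, a ratio of 4.26 (3.60 to 5.03). Only 10 of 53 selected control and 26 of 160 selected KO cells had a UMI of it, and the cell with most held 13 of 51 and 31 of 172. Without that cell the ratios were 3.12 (2.20 to 4.31) and 3.52 (2.93 to 4.21). Its longest transcript is 1307 nt, short beside those of the other leading genes.

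The lowest ratios over all control cells belonged to leukocyte genes, and the other control cells included 362 cells below the eGFP limit against 4 of the selected cells. Lyz2, which encodes a lysozyme of myeloid cells, had no UMI in the selected control cells and 805 CPM in the others, at least 53.9-fold lower at a floor of 3 counts over the population. The other eGFP-positive control cells had 4.87 CPM of it. S100a8, Plac8, H2-Eb1 and Camp were at 0 as well, and Cd74, Ccl5 and H2-Aa had 1 or 2 UMIs. Among eGFP-positive cells the lowest control genes were different ones. Sec61b and Sec61g, small subunits of the protein channel of the endoplasmic reticulum, had ratios of 0.196 (0.0938 to 0.360) and 0.324 (0.231 to 0.444). Ost4, a small subunit of the oligosaccharyltransferase, had 0.274 (0.171 to 0.415). Tpt1, Ybx1, Bag1, Ndufs6 and Fth1 completed the list.

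Fth1, the heavy subunit of the iron store ferritin, showed the difference in single cells. Among eGFP-positive control cells the selected ones had a median of 2470 CPM (840 to 14112) against 9238 in the others, and 91.8% of them lay below the other cells' first quartile. The median cell held 7 Fth1 UMIs against 101. For the KO library the medians were 7281 against 17328 CPM, and 73.8% lay below the first quartile.

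A relation with transcript length was noticed in the data. Transcript length is the longest protein-coding transcript in the annotation. Over 1891 control genes with a length, the ratio was related to length with a Spearman rho of 0.76, and over 1702 KO genes with 0.65. Genes are not independent replicates, and these values describe 1 library each. In the control, the 252 genes under 1000 nt had a median log2 ratio of -0.98, with 0 higher and 204 lower. The 138 genes of 8000 nt or more had a median of 1.07, with 118 higher and 1 lower. In KO cells the 253 genes under 1000 nt had a median of -0.36 (0 higher, 49 lower) and the 104 genes of 8000 nt or more a median of 0.52 (42 higher, 0 lower). The steps between them lay in order in both libraries. Of all genes tested, 33.7% were higher and 25.0% lower in the control, and 9.99% and 6.68% in KO cells. These counts include genes that passed the 100 CPM minimum only through the selected cells. In the control 425 tested genes did so, 350 of them higher, and in KO cells 202, with 67 higher. Genes at 150 to 300 CPM in the other cells passed without the selected cells, and their rho was 0.72 (control) and 0.60 (KO).

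The length relation was also present when level and gene class were held apart. Without the ribosomal protein and respiratory chain lists the rho was 0.73 in the control and 0.61 in KO cells. The level step of 300 to 1000 CPM in the other cells had the highest rho, 0.74 over 323 control and 0.62 over 321 KO genes. The rho was lowest at 1000 CPM or more, at 0.60 over 157 control and 0.42 over 142 KO genes. In that step the 4 KO genes of 4000 nt or more had a median log2 ratio of 0.06. Among eGFP-positive cells of the selected cells' depth, the median log2 ratio of genes of 4000 nt or more exceeded that of genes under 1000 nt by 1.75 in the control and 0.75 in KO cells, against 1.84 and 0.75 over all cells. With the shortest annotated coding transcript in place of the longest, the rho was 0.26 and 0.21. Which transcript of a gene was captured is not known from counts per gene.

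**Figure D3:**
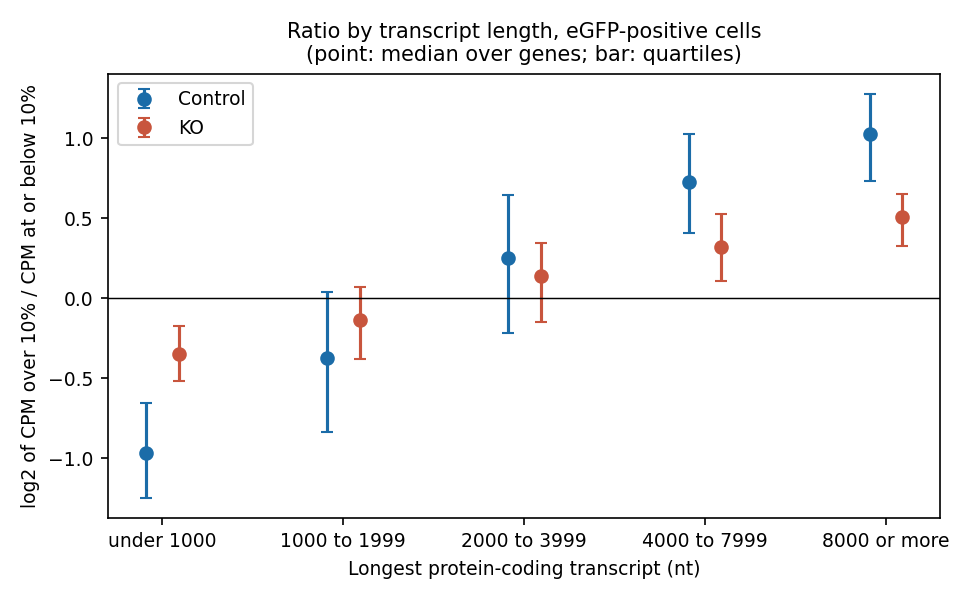
Median log2 ratio (points) and quartiles over genes (bars) of CPM in eGFP-positive cells over 10% to CPM in those at or below 10%, by length of the longest protein-coding transcript in nt. The medians run from -0.97 to 1.02 in the control and from -0.35 to 0.51 in KO cells.

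Contractile genes were higher in part and lower in part in the selected control cells, and all those tested in KO cells had ratios of 1.10 or more. Of 28 listed genes, 26 passed the minimum in the control, with 10 higher, 1 lower and a median log2 ratio of 0.09. Among KO cells 25 passed, with 10 higher, 0 lower and a median of 0.54. The median over all tested genes was 0.20 in the control and 0.03 in KO cells. Of these genes 33.7% and 9.99% were higher and 25.0% and 6.68% lower. The control count of higher members was near that share. That share includes 350 higher genes that passed the 100 CPM minimum only through the selected cells. The contractile count includes Myocd and Ldb3, which passed in the same way. The share without such genes was not compared. Among eGFP-positive cells the control median was -0.0015, with 10 higher and 3 lower. With the other cells reweighted to the clusters of the selected cells the KO median was 0.34, and at the selected cells' own depth the medians were 0.32 in the control and 0.29 in KO cells.

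Myh11, the smooth muscle myosin heavy chain, stood at 5528 CPM in the selected and 2462 CPM in the other control cells, a ratio of 2.25 (2.11 to 2.38). For the KO library it stood at 1802 and 895 CPM, a ratio of 2.01 (1.93 to 2.10). Per cell the selected control cells ranged from 1067 to 11980 CPM with a median of 5669, against a median of 2277, and 83.0% lay above the other cells' upper quartile. Over all cells the mean numbers of Myh11 UMIs per cell were 20.9 and 24.6 in the control and 14.9 and 13.5 in KO cells. Among eGFP-positive cells the medians were 19 against 27 UMIs in the control and 14 against 12 in KO cells. Of the selected eGFP-positive control cells, 34.7% lay below the others' first quartile of Myh11 UMIs. Flna, a filamin, had ratios of 2.62 (2.48 to 2.77) and 2.07 (2.005 to 2.14). Myocd, a coactivator of smooth muscle gene transcription, had a ratio of 2.79 (1.93 to 3.93) in the control. Mylk, the myosin light chain kinase, had 1.67 and 1.62. Synpo2, Itga8, Ppp1r12b, Ldb3 and Smtn were also past 1.5-fold in both libraries.

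Acta2, smooth muscle actin, was not past 1.5-fold in either library and differed in direction between them. It stood at 18019 against 20549 CPM in the control, a ratio of 0.877 (0.848 to 0.906), and at 17085 against 11919 CPM in KO cells, a ratio of 1.43 (1.41 to 1.45). Tagln, an actin-binding protein, had 0.732 (0.695 to 0.771) and 1.10 (1.07 to 1.13). Ppp1r14a, an inhibitor of myosin phosphatase with a transcript of 950 nt, had 0.599 (0.501 to 0.709) in the control. Myl6 and Tpm2, a myosin light chain and a tropomyosin, were lower past 1.5-fold among eGFP-positive control cells, at 0.648 each.

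Messenger RNAs for cytosolic ribosomal proteins were lower throughout. Of 82 tested in the control, 81 were lower by 1.5-fold or more and none higher, with a median log2 ratio of -1.34. In KO cells 43 of 82 were lower and none higher, with a median of -0.60. Of all genes tested, 25.0% in the control and 6.68% in KO cells were lower. The list's tested genes had a median transcript length of 906 nt. Of genes under 1000 nt outside this and the respiratory chain list, 73.9% (control) and 13.6% (KO) were lower. Their median log2 ratios were -0.87 and -0.32. The sum of the ribosomal protein genes took a median of 47559 CPM in the selected control cells (23496 to 204015) against 160329 in the others, and 94.3% of the selected cells lay below the others' first quartile. Among KO cells the medians were 64713 against 128636 CPM, and 75.6% lay below. Rps3 had a ratio of 0.276 (0.226 to 0.333) in the control and Rpl32 a ratio of 0.561 (0.530 to 0.592) in KO cells. Pseudogene copies of ribosomal protein genes can share reads, so single members of the list are less certain than its sum.

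The nuclear-encoded subunits of the respiratory chain did not follow the mitochondrial ones. In the control, 57 of 71 tested were lower by 1.5-fold or more and none higher, with a median log2 ratio of -0.94, while the share of the mitochondrial messenger RNAs was by choice higher. Of all genes tested in the control, 25.0% were lower. The list's tested genes had a median transcript length of 861 nt in the control. Of 161 control genes under 1000 nt outside this and the ribosomal protein list, 73.9% were lower, with a median of -0.87. All 5 complexes had medians under 0, from -1.10 for complex IV to -0.62 for complex II. The lowest was Ndufs6 of complex I, at 54.8 against 235 CPM, a ratio of 0.233 (0.116 to 0.418). Atp5a1 of ATP synthase, at 1.03 (0.817 to 1.28), and Sdha of complex II, at 1.15 (0.733 to 1.71), were near 1. For the KO library 1 of 72 was lower, Ndufb4 at 0.652 (0.559 to 0.757), none was higher, and the median was -0.18. Of all KO genes tested, 6.68% were lower. Of 162 KO genes under 1000 nt outside this and the ribosomal protein list, 13.6% were lower, with a median of -0.32. Of 30 genes for mitochondrial gene expression, import, chaperones and dynamics, 11 passed the minimum in each library. In the control 6 were lower, among them the chaperonin Hspe1 at 0.408 (0.281 to 0.574), the fission factor Fis1 and the import receptor Tomm20. In KO cells none was past 1.5-fold.

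Of the matrix genes, 21 of 28 tested in the control were higher in the selected cells and none lower, with a median log2 ratio of 1.16, beside 33.7% higher and 25.0% lower of all genes tested. In KO cells 10 of 25 were higher and 2 lower, with a median of 0.43, beside 9.99% and 6.68%. The list's tested genes had a median transcript length of 5367 nt in the control and 5386 nt in KO cells. Of 476 control genes of 4000 to under 8000 nt, 68.5% were higher and 2.52% lower, with a median of 0.78. Of 366 such KO genes, 20.2% were higher and 1.64% lower, with a median of 0.32. Col5a1, a higher control member, passed the 100 CPM minimum only through the selected cells, at 209 against 74.8 CPM. The share without such genes was not compared. The list's sum was 3.75% of UMIs outside mitochondrial genes in the selected and 2.39% in the other control cells, but 4.49% against 5.79% in KO cells, a ratio of 0.775 (0.769 to 0.782). Col1a1, a chain of type I collagen, stood at 1355 against 435 CPM in the control, a ratio of 3.12 (2.75 to 3.52), and at 565 against 420 CPM in KO cells, a ratio of 1.34 (1.25 to 1.45). Col18a1, a basement membrane collagen, had ratios of 2.85 and 2.10. Mgp, the matrix Gla protein that inhibits calcification and has a transcript of 617 nt, had 0.993 (0.934 to 1.06) in the control and 0.647 (0.640 to 0.654) in KO cells. Mfap5, a short microfibril protein gene, was the other matrix gene lower in KO cells.

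The stress, cell death and glycolysis lists are given beside the shares of all genes tested, 33.7% higher and 25.0% lower in the control and 9.99% and 6.68% in KO cells. Of the immediate early genes, transcription factors and others induced within minutes of stimulation, 5 of 20 tested were higher in the control and none of 21 in KO cells. Fosl2 had a control ratio of 2.57 (2.05 to 3.19), while Fos had 0.976 (0.916 to 1.04) and Atf3 0.858 (0.749 to 0.979). The heat shock genes had 3 higher and 1 lower of 15 in the control, and 2 higher of 15 in KO cells. Hspa1a, an inducible chaperone of the HSP70 family, stood at 1917 against 1149 CPM and at 457 against 274 CPM. Of cell death genes, 2 of 5 tested were lower in the control and 1 of 7 in KO cells, and none was higher. The ATF4 and unfolded protein list had 1 of 7 lower in the control and none past 1.5-fold in KO cells. The glycolysis list had 2 higher and 1 lower of 10 in the control and 1 higher of 9 in KO cells, where Pfkp had 1.71 (1.46 to 1.99). Of 7 homeobox genes 1 was tested, Prrx1 in KO cells, at 0.922 (0.775 to 1.09).

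**Figure D4:**
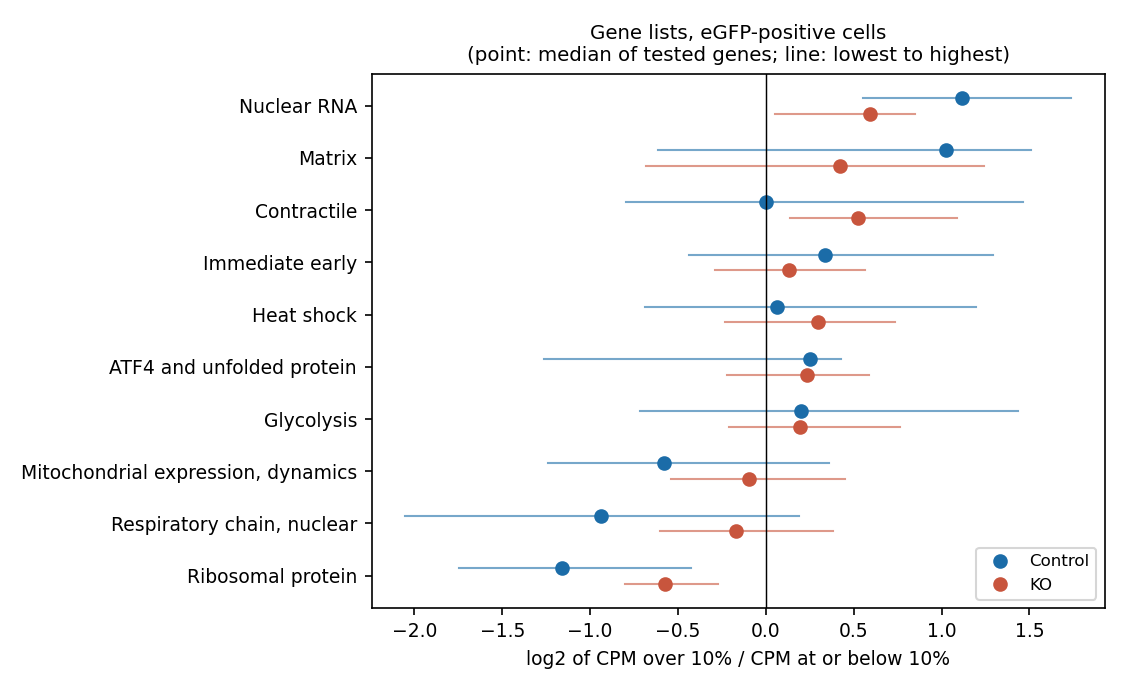
For each gene list, the median log2 ratio (points) and the span from the lowest to the highest tested gene (lines) of CPM in eGFP-positive cells over 10% to CPM in those at or below 10%. In both libraries the medians of the nuclear RNA and matrix lists lie to the right of 0. Those of the ribosomal protein and nuclear-encoded respiratory chain lists lie to the left. All 4 are further from 0 in the control, and the lines of the matrix and respiratory chain lists cross 0.

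Levels in eGFP-positive cells were also taken in steps of mitochondrial share, of which the first 4 (to 4%, 6%, 8% and 10%) lie below the limit. Ribosomal protein genes took 15.3%, 15.7%, 16.1% and 14.3% of UMIs outside mitochondrial genes in these steps of the control, then 11.7% at 10% to 12% and 3.34% above 30%. For the KO library they took 12.7%, 12.8%, 13.2% and 12.7%, then 9.91% and 3.39%. The KO values were thus nearly level below the limit and lower in the first step over it. Malat1 stood at 35049, 27042, 24379 and 29717 CPM in the steps below the limit in the control, and at 108305 CPM above 30%. In KO cells it stood at 45721, 45326, 45236 and 44004 CPM below the limit, at 49769 CPM at 10% to 12% and at 179645 CPM above 30%. Transcripts of 4000 nt or more took 17.6% of UMIs at 6% to 8% and 33.8% above 30% in the control, and 17.5% and 26.3% in KO cells. The contractile list stayed between 6.18% and 8.04% of UMIs in the control and peaked at 5.23% between 10% and 15% in KO cells. All control steps over the limit (6 to 16 cells) and the last 2 KO steps (19 and 13 cells) held fewer than 20 eGFP-positive cells.

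**Figure D5:**
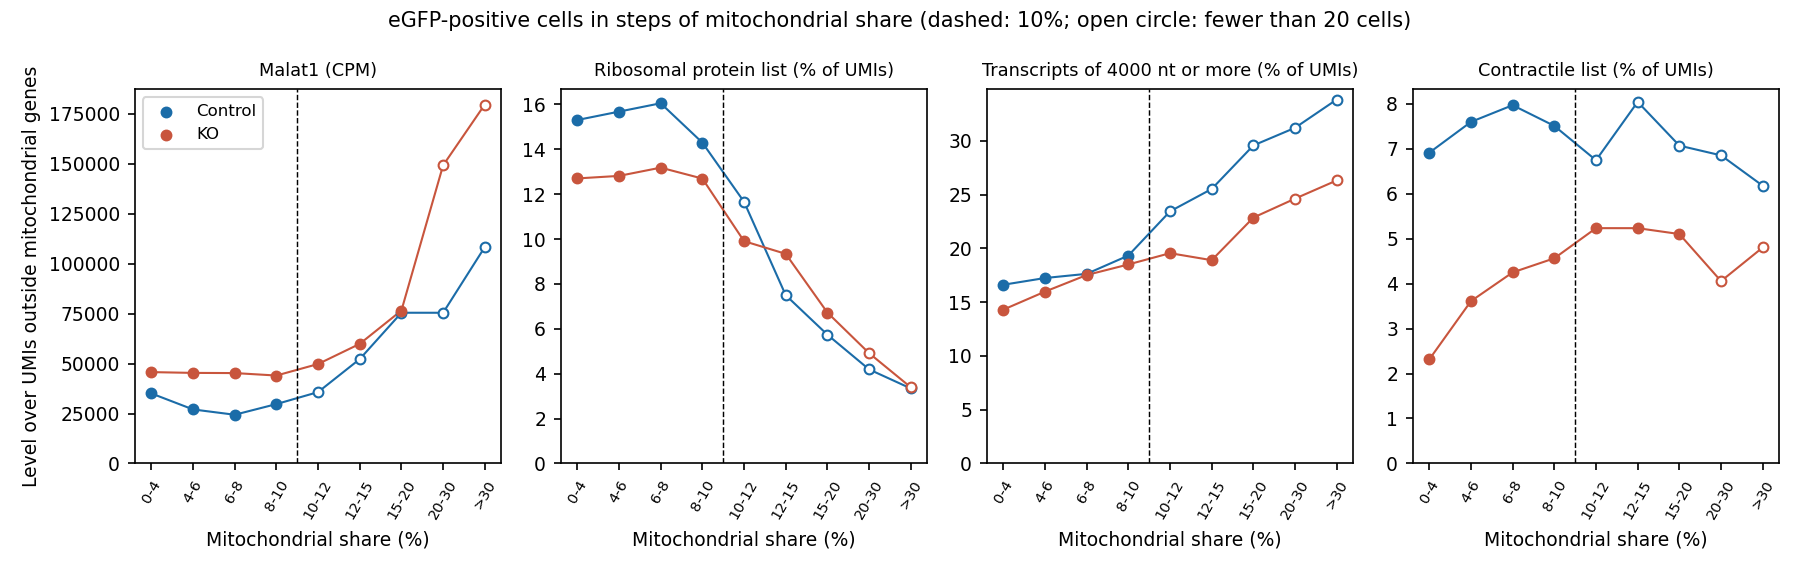
Levels in eGFP-positive cells grouped by mitochondrial share (%), over UMIs outside mitochondrial genes, with Malat1 in CPM and the other panels in percent of UMIs. Ribosomal protein genes fall below 4% in both libraries above 30% mitochondrial share, while Malat1 and long transcripts climb, and open circles mark steps with fewer than 20 cells.

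Within single clusters, Malat1 and Myh11 ratios were over 1 and ribosomal protein medians under 0 in all 4 clusters with 20 or more selected cells. In the control cluster led by Wif1, the 47 selected cells had a Malat1 ratio of 2.38, an eGFP ratio of 0.758, a ribosomal protein median log2 ratio of -1.15 and a Myh11 ratio of 2.09. In the KO cluster led by Chchd10, 88 selected cells had 1.42, 0.820, -0.55 and 1.57. In the KO cluster led by Cenpa and Spp1, 47 selected cells with a median mitochondrial share of 17.5% had 2.04, 0.952, -0.96 and 1.90. In the KO cluster led by Cytl1 and Dcn, 22 selected cells had 1.34, 0.890, -0.22 and 1.89. There the median log2 ratio was 0.17 for transcripts of 4000 nt or more, 0.0033 for those under 1000 nt and 0.11 for the nuclear-encoded respiratory chain, against -0.18 for that list over all KO cells.

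The genes with the lowest ratios in the selected KO cells included 3 of the modulated smooth muscle list, Spp1, Dcn and Lum. Spp1, which encodes the secreted phosphoprotein osteopontin, stood at 53.8 CPM in the selected and 360 CPM in the other KO cells, a ratio of 0.149 (0.117 to 0.189). Dcn and Lum, small leucine-rich proteoglycans, had ratios of 0.165 and 0.217, and Cytl1, a cytokine-like protein, 0.230. A single cell held 30 of the 82 Dcn UMIs, and without it the Dcn ratio was 0.105 (0.0786 to 0.138). Gpx3, a secreted glutathione peroxidase, stood at 949 against 2073 CPM. Of 13 tested genes of the modulated smooth muscle list 6 were lower and none higher, beside 6.68% lower and 9.99% higher of all KO genes tested. Gpnmb, Thbs1 and Tnfrsf11b were within 1.5-fold. Abi3bp, Pcolce2 and Tnnt2 completed the 8 lowest. The cluster led by Cytl1 and Dcn held 13.8% of the selected and 30.5% of the other KO cells. Spp1 stood at 59.3 against 876 CPM in the cluster led by Cenpa and Spp1, a ratio of 0.0677 (0.0428 to 0.102). In the cluster led by Cytl1 and Dcn it stood at 116 against 682 CPM, a ratio of 0.170 (0.106 to 0.257). In the cluster led by Chchd10 it stood at 36.0 against 34.2 CPM, a ratio of 1.05 (0.680 to 1.56) whose interval held 1.

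The 2 genotypes are set side by side here over and below the limit. Acta2 had a KO to control ratio of 0.948 (0.915 to 0.982) in the cells over 10% and of 0.580 (0.577 to 0.583) in the others, and Tagln 0.757 and 0.504. Myh11 had 0.326 (0.303 to 0.350) and 0.364 (0.358 to 0.369). Mgp had 5.42 (5.10 to 5.77) and 8.33 (8.27 to 8.38). Gpx3 and Gpnmb had no UMI in the selected control cells and were at least 63.5-fold and 13.1-fold higher in the selected KO cells at a floor of 3 counts over the population. The ribosomal protein list changed sign, with a median log2 ratio of KO to control of 0.30 over the limit and -0.39 below it. The other cells included 362 control and 66 KO cells under the eGFP limit of 1000 CPM. Among eGFP-positive cells the ribosomal median was 0.30 over 10% and -0.26 at or below it. Acta2 then had ratios of 0.955 and 0.553, and Mgp 5.43 and 7.76. The selected cells of the 2 libraries differed in mitochondrial share, with the medians given above, and its part in these differences was not tested.

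Aqp1, a water channel, was past 1.5-fold in opposite directions. It stood at 189 against 115 CPM in the control, a ratio of 1.65 (1.16 to 2.27) from 38 UMIs, and at 54.5 against 115 CPM in KO cells, a ratio of 0.476 (0.372 to 0.601) from 72 UMIs. No other gene tested in both libraries was past 1.5-fold in both in opposite directions.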

How the data were processed

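The authors deposited raw UMI counts per gene and cell, 1 matrix per library. The submitters' processing notes name bcl2fastq, Cell Ranger and Seurat 2.0 with mm10, while the sources used here do not say how cells were called. The libraries held 21690868 (control) and 32427513 (KO) UMIs and shared 16 barcode sequences.

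Members and gene lists were chosen with earlier results of these data known. Counts were summed over cells and divided by UMIs outside mitochondrial genes. Ratios carry exact conditional binomial 95% intervals, and the ratio code was tested on simulated data. A gene counted as higher or lower at 1.5-fold with 100 CPM or more in either population. Named were eGFP, the mitochondrial genes, list members past the threshold or at either end, and the 8 genes per library and direction whose interval lay farthest from 1, leaving out ribosomal protein genes and unnamed models. Clusters used log counts without mitochondrial genes, 2000 variable genes, 30 components, 15 neighbours and Leiden resolution 0.5 (scanpy 1.11.5), with Scrublet per library. Positions and lengths came from GENCODE M21 on mm10. The length relation and the depth and doublet alternatives were chosen after seeing the data. Some marker genes are not reported here.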

Additional observations from a re-analysis of the deposited data

Results flagged for a closer look

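Aqp1 was higher in the selected control cells at a ratio of 1.65 and lower in the selected KO cells at a ratio of 0.476, moving in opposite directions in the 2 genotypes. The difference between genotypes was not tested, since each had 1 library.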

How the results depend on the processing

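The control contractile median, 0.09 over all cells, changed sign to -0.0015 in eGFP-positive cells, -0.12 with all UMIs in the denominator, -0.0021 with selected cells over 15% and -0.02 with the other cells reweighted, and no other ratio or median changed direction under the alternatives run. No paired analysis was possible because there was 1 library per genotype, and no library could be left out. At 2-fold, 305 genes were higher and 245 lower in the selected control cells, and 16 and 11 in the KO cells. With a minimum of 200 CPM the control counts were 291 and 297, and 86 KO genes were higher. With no minimum beyond 1 UMI they were 4324 and 1774 in the control and 2891 and 1161 in KO. With all UMIs in the denominator the eGFP ratio was 0.700 (control) and 0.786 (KO), the Malat1 ratio 2.02 and 1.47, and 347 control genes were higher. The KO contractile median was then 0.38, the KO ribosomal median -0.75, and 65 KO genes were higher and 243 lower. With selected cells over 15% the eGFP ratio was 0.676 and 0.814, the Malat1 ratio 3.13 and 2.87, the ribosomal median -1.95 and -1.26, and the ratio of UMIs per cell 0.265 and 0.317. That limit also gave a KO respiratory chain median of -0.74, a KO difference of long from short transcripts of 1.47, and 470 higher and 460 lower KO genes. In eGFP-positive cells alone the Malat1 ratio was 2.17 and 1.53. With cells weighted equally it was 2.63 and 2.02, the ribosomal median was -1.75 and -0.77, and 209 KO genes were lower. With the other cells reweighted to the clusters of the selected cells, the control eGFP ratio was 0.750, the KO Malat1 ratio 1.60, the KO contractile median 0.34, and 100 KO genes were higher. At the selected cells' own depth (chosen after seeing the data, 24 against 74 control and 79 against 488 KO cells), the control eGFP ratio was 0.966, the Malat1 ratio 2.22 and 1.45, the contractile median 0.32 and 0.29, and the KO ribosomal median -0.72. The cause of these shifts was not tested. Leaving out called doublets (18 results) moved none beyond their spread. With the shortest transcript in place of the longest (2 results), the difference of long from short transcripts was smaller. It was 0.988 against 1.84 in the control and 0.434 against 0.745 in KO cells. Both lay within the spread used (0.787 to 2.84 and 0.366 to 1.09). That spread was built from the intervals of single genes, so it does not measure the precision of a difference of medians. Counts of 53 and 160 cells limit the precision, and genes with few UMIs in the selected cells have wide intervals.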
